A study of Homo sapiens with 6 samples.

Results

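Transcript levels of 10 genes of the Wnt/beta-catenin pathway, CTNNB1, APC, AXIN1, AXIN2, GSK3B, LRP5, LRP6, TCF7L2, LEF1 and DKK1, were compared between control and RBM3-depleted T24 cells. The genes were chosen by symbol, because RBM3, an RNA-binding protein induced by cold, has been linked to beta-catenin in other tumour cells, and all 10 were found among the 63677 identifiers of the count table. T24 is an established human bladder carcinoma line, and both groups were T24 cells given siRNA at 25 nM with a lipid reagent for 4.5 h and harvested the next day. The control group received a non-targeting siRNA, and the siRBM3 group received a pool of siRNAs against RBM3. There were 3 libraries of poly(A) RNA in each group, numbered 1, 3 and 5 (control) and 3, 4 and 5 (siRBM3). All libraries came from 1 cell line, and the sources do not say whether they came from separate cultures, so the p-values measure the spread between these libraries, which may be technical.

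In the absence of Wnt ligand, beta-catenin is bound by a destruction complex built on the scaffolds AXIN and APC, phosphorylated by CK1 and GSK3, and passed to the ubiquitin ligase adaptors BTRC and FBXW11 for degradation. Wnt ligands bind a Frizzled receptor together with LRP5 or LRP6, which inactivates the complex, and stable beta-catenin then enters the nucleus and acts with TCF/LEF factors on target genes such as AXIN2. The pathway is therefore set largely at the level of protein, which transcript counts do not measure. DKK1 is a secreted protein that binds LRP5 and LRP6 and blocks the receptor, and it is itself a known target of beta-catenin.

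The libraries held 23603992 to 45098612 counts each, of which 1.63% to 9.40% were mitochondrial, and siRBM3 replicate 3 was highest in both. Levels are given as CPM, which are counts relative to the library total, scaled by TMM factors, and fold changes as log2 of siRBM3 over control. RBM3 was at 225, 368 and 301 CPM in the control libraries and at 54.1, 90.1 and 58.4 CPM in the siRBM3 libraries. The groups did not overlap, and the log2 fold change was -2.14 (SE 0.23), with an FDR of 0.0822 by edgeR and an adjusted p of 3.73e-14 by DESeq2. An exact two-sided permutation test of the 6 values gave p = 0.1, the smallest that 3 against 3 libraries allow. Of the 13 urothelial or epithelial markers, the keratins KRT7, KRT8, KRT18 and KRT19 were above 200 CPM in every library, while KRT5, KRT20, TP63, UPK1A, UPK1B and UPK3A were under 1 CPM in all. GATA3 was at 9.31 to 14.3 CPM, EPCAM at 4.90 to 6.87 CPM and UPK2 at 1.13 to 1.86 CPM. Of the uroplakins, the defining proteins of the urothelial surface, UPK2 was thus the one above 1 CPM. The summed level of the 13 markers, most of it KRT7 and KRT8, was 5077 to 5882 CPM in the control libraries and 4222 to 4321 CPM in the siRBM3 libraries, and its part in the results below was not tested. The summed markers of other cell types were at 2.17 to 3.02 CPM for leukocytes, 0.585 to 0.931 CPM for smooth muscle, 9.06 to 11.4 CPM for fibroblasts and 27.9 to 40.8 CPM for endothelium. Nearly all of the endothelial sum was the 1 gene CDH5 (27.2 to 40.4 CPM), while VWF was at 0.344 to 0.689 CPM and PECAM1 was not matched. The sum is therefore no measure of endothelial cells. In bulk RNA, fewer cells of a kind and less RNA per cell cannot be told apart.

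DKK1 and TCF7L2 had the smallest p-values of the 10 genes, and the start regions of both are shown so that the sequence can be read beside the values. Windows of 250 bases before to 50 bases after an annotated transcript start were taken from RefSeq (GRCh38.p14, 5′ to 3′ on the strand of the gene), and 8 of the 10 genes had at least 1 such window, 11 windows in all. The sequences CTTTGAA and CTTTGAT, forms of the element that TCF/LEF factors bind, were searched on both strands. They occurred in 1 of the 11 windows, that of DKK1, where CTTTGAA (capitals) began at position -95 from the start, and in 2409 of 35116 windows of all genes (6.86%). The first TCF7L2 window had no match. A match of letters describes the window and does not show binding.
DKK1, chr10:52314031-52314330, plus strand: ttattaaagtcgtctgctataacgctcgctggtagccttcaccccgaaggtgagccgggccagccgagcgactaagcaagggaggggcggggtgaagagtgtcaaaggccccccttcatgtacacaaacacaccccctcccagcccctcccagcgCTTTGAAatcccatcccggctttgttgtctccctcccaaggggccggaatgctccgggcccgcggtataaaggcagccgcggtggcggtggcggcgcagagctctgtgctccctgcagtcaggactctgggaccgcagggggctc
TCF7L2, chr10:112949997-112950296, plus strand: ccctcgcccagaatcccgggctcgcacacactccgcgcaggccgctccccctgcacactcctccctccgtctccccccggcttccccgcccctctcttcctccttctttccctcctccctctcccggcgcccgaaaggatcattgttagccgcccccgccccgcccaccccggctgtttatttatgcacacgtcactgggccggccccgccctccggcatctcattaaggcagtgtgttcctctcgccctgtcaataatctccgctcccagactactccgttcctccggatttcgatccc

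No member of the group passed the threshold for a differentially expressed gene (DEG), a fold change of at least 1.5 with an FDR below 0.01. Of the 10 genes, 9 passed the filter on low counts and were tested, and AXIN2 was not. The edgeR fit called 0 of 9 members, beside 0.0% of the 15099 genes tested, and DESeq2 called 0 of the 8 members to which it gave an adjusted p, beside 1.27% of 12589 genes. At an unadjusted p under 0.05 there were 2 of 9 members, TCF7L2 (higher) and DKK1 (lower), beside 13.1% of all genes. The libraries of the groups did not overlap for 1 of 9 members, DKK1, beside 19.9% of all genes. Of the tested members 4 were higher and 5 lower in siRBM3, and the median log2 fold change was -0.0145, beside -0.0083 for all genes tested.

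**Figure D1:**
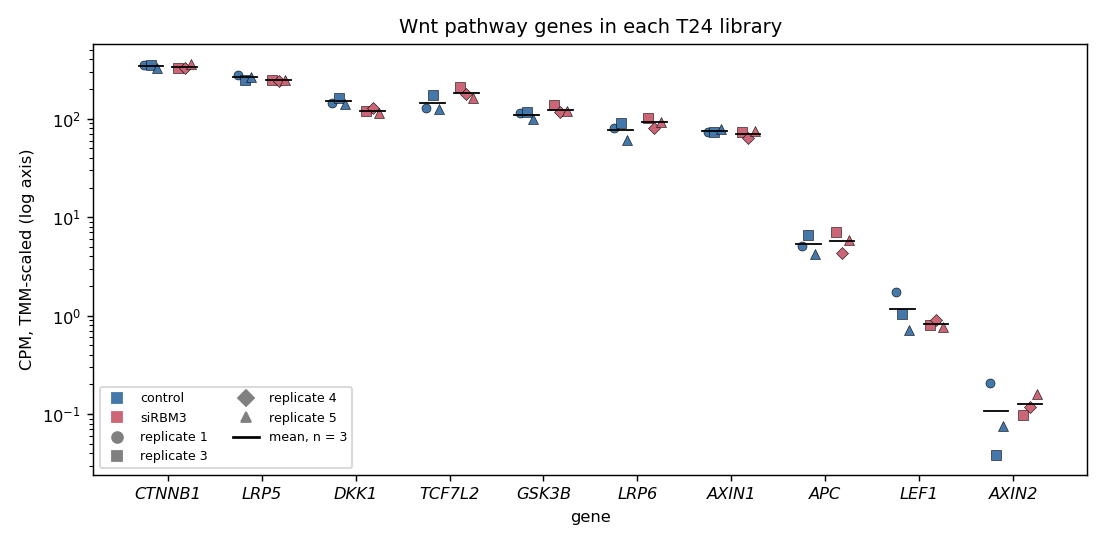
TMM-scaled CPM (log axis) of the 10 genes in each of the 6 libraries, with the colour giving the group, the marker shape the replicate number and the line the mean of 3 libraries. CTNNB1 lay at 324 to 363 CPM in every library, only DKK1 had groups that did not overlap, and AXIN2 lay at 0.0383 to 0.207 CPM.

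Divided by the exon length of each gene, so that genes could be compared, the levels in the control libraries followed the order DKK1 (67.5 ± 5.36 CPM per kb, SD, n = 3), LRP5 (42.4 ± 2.78), CTNNB1 (29.0 ± 1.12), TCF7L2 (21.3 ± 4.01), AXIN1 (9.87 ± 0.41), LRP6 (7.40 ± 1.48), GSK3B (6.13 ± 0.53), APC (0.388 ± 0.0851), LEF1 (0.216 ± 0.0961) and AXIN2 (0.0205 ± 0.0170). The ranges of neighbours overlapped for LRP6 and GSK3B and for APC and LEF1, so these were not separable by their spread. In the siRBM3 libraries the order of means was the same, from DKK1 at 54.4 ± 3.46 CPM per kb to AXIN2 at 0.0242 ± 0.00627. There CTNNB1 (28.7 ± 1.87) overlapped TCF7L2 (27.2 ± 3.58), and AXIN1 (9.38 ± 0.77) overlapped LRP6 (8.91 ± 1.03). The exon length joins all annotated transcripts of GENCODE v44lift37, and the annotation used for counting is not stated, so counted exons may differ. A gene with long exons that these cells do not use appears lower on this scale. The same holds for the shares per kb given below.

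CTNNB1, which encodes beta-catenin (ENSG00000168036, hg19 chr3:41236232-41301587), was at 350, 347 and 326 CPM in the control libraries and at 326, 324 and 363 CPM in the siRBM3 libraries. The groups overlapped, and the highest value of all was in siRBM3 replicate 5. The log2 fold change was -0.01 (SE 0.09, 95% interval -0.22 to 0.19, FDR 0.960). Its interval stayed within a 1.5-fold change in either direction. With 1 library left out it ranged from -0.07 to 0.02, so the sign was not set. Over the 6 libraries the genes whose centred log2 levels were nearest to those of CTNNB1 were SEC16A, MTX1 and CEP170B, with root mean square differences of 0.022, 0.023 and 0.025, where the median gene differed by 0.182. This describes flat profiles over 6 libraries, and all genes of a library share its depth and scaling factor.

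The receptors LRP5 and LRP6 form one coreceptor family. LRP5 (ENSG00000162337, chr11:68080059-68216743) was at 279, 245 and 263 CPM in control and at 244, 241 and 250 CPM in siRBM3, with a log2 fold change of -0.10 (SE 0.09, 95% interval -0.30 to 0.10, FDR 0.686). LRP6 (ENSG00000070018, chr12:12268959-12419978) was at 79.5, 90.6 and 60.2 CPM in control and at 103, 81.2 and 93.5 CPM in siRBM3, with a log2 fold change of 0.27 (SE 0.16, 95% interval -0.10 to 0.63, FDR 0.520). The groups overlapped for both genes, and control replicate 5 was the lowest library for LRP6. The LRP6 log2 fold change was 0.12 without control replicate 5 and 0.40 without control replicate 3, and that of LRP5 lay between -0.15 and -0.05 with 1 library left out. Per kb of exon, LRP6 made up 14.9 ± 3.05% (SD, n = 3) of the sum of LRP5 and LRP6 in control and 18.3 ± 1.65% in siRBM3, with overlapping libraries, and LRP5 was the larger of the pair in all 6.

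Of the destruction complex, the scaffold AXIN1 (ENSG00000103126, chr16:337440-402723) was at 72.5, 72.8 and 78.0 CPM in control and at 73.3, 64.0 and 74.7 CPM in siRBM3. The groups overlapped, with a log2 fold change of -0.07 (SE 0.10, 95% interval -0.30 to 0.15, FDR 0.798). GSK3B (ENSG00000082701, chr3:119540168-119813841), the kinase that marks beta-catenin for degradation, was at 113, 117 and 98.9 CPM in control and at 136, 116 and 118 CPM in siRBM3. Its groups overlapped through siRBM3 replicate 4, and the log2 fold change was 0.17 (SE 0.11, 95% interval -0.07 to 0.42, FDR 0.539), or 0.096 without siRBM3 replicate 3. Per kb of exon, GSK3B was 36.9 ± 3.60% of GSK3A and GSK3B together in control and 41.8 ± 1.60% in siRBM3 (SD, n = 3).

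APC (ENSG00000134982, chr5:112043215-112181936), the scaffold lost in most colorectal cancers, was low in all libraries. It was at 5.07, 6.54 and 4.26 CPM in control and at 7.09, 4.35 and 5.85 CPM in siRBM3, from 110 to 291 counts per library. The groups overlapped throughout. The log2 fold change was 0.13 (SE 0.24, 95% interval -0.42 to 0.68, FDR 0.856), and the interval included a 1.5-fold higher level. It turned to -0.05 without siRBM3 replicate 3 and reached 0.31 without control replicate 3.

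AXIN2 (ENSG00000168646, chr17:63524681-63557766), the second AXIN scaffold and the most widely used target gene of beta-catenin, was close to absent from these libraries. It had 6, 1 and 2 counts in the control libraries and 4, 3 and 4 counts in the siRBM3 libraries, or 0.207, 0.0383 and 0.0753 CPM against 0.0975, 0.119 and 0.161 CPM. A floor of 3 counts corresponds to 0.0731 to 0.121 CPM in these libraries. A fall or a small difference in AXIN2 was therefore not detectable at this depth, and no library held more than 6 counts. The fits that kept it gave log2 fold changes of 0.20 (DESeq2, unadjusted p = 0.854) and 0.17 (edgeR without the filter, FDR 0.978). Per kb of exon, AXIN2 was 0.0762% to 0.412% of the sum of AXIN1 and AXIN2. Another gene shares 25.3% of its exon length, and whether counting used strand is not stated.

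TCF7L2 (ENSG00000148737, chr10:114710006-114927437), the main TCF/LEF factor of the intestinal epithelium, was at 129, 174 and 126 CPM in control and at 209, 177 and 162 CPM in siRBM3. The groups overlapped, since control replicate 3 was above siRBM3 replicate 5. The log2 fold change was 0.35 (SE 0.15, 95% interval 0.01 to 0.70, unadjusted p = 0.0464, FDR 0.372). The unadjusted p was above 0.05 without control replicate 1 (0.127), control replicate 5 (0.158), siRBM3 replicate 3 (0.156) or siRBM3 replicate 4 (0.0782), while the log2 fold change stayed between 0.25 and 0.52. Per kb of exon, TCF7L2 made up 88.2 ± 5.20% (SD, n = 3) of the TCF/LEF transcripts in control and 90.2 ± 2.21% in siRBM3, so it was the predominant member of that family in every library.

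LEF1 (ENSG00000138795, chr4:108968701-109090112), a TCF/LEF factor that is also a target of the pathway, was near the detection limit, with 50, 27 and 19 counts in control and 33, 23 and 19 in siRBM3. This gave 1.72, 1.03 and 0.716 CPM against 0.804, 0.909 and 0.767 CPM. The groups overlapped, and control replicate 1 was the one library above the rest. The log2 fold change was -0.49 (SE 0.36, 95% interval -1.31 to 0.33, FDR 0.607), and it was -0.08 without control replicate 1. LEF1 made up 0.906 ± 0.425% of the TCF/LEF transcripts in control and 0.516 ± 0.0659% in siRBM3 (per kb, SD, n = 3). Its exons overlap those of LEF1-AS1 over 5.20% of their length.

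DKK1 (ENSG00000107984, chr10:54074041-54077802) was the one member whose groups did not overlap. It was at 144, 164 and 142 CPM in control (150 ± 11.9, SD, n = 3) and at 118, 129 and 115 CPM in siRBM3 (121 ± 7.68), so that each siRBM3 library was below each control library. The log2 fold change was -0.31 (SE 0.10, 95% interval -0.54 to -0.09, unadjusted p = 0.0124). The FDR over all genes was 0.247, and the DESeq2 adjusted p was 0.174. With 1 library left out the log2 fold change lay between -0.36 and -0.24, and the unadjusted p was 0.0533 without siRBM3 replicate 5. The exons overlap those of PRKG1-AS1 over 10.2% of their length, and reads of the 2 could not be separated if counting ignored strand. The genes nearest to DKK1 in their centred log2 levels over the 6 libraries were SLC25A4, INTS13 and GYG1, with root mean square differences of 0.033, 0.039 and 0.039 beside a median of 0.245 for all genes. DKK1 was 60.8 ± 1.81% of the summed DKK transcripts per kb in control and 59.8 ± 2.79% in siRBM3, and nearly all of the remainder was DKK3.

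**Figure D2:**
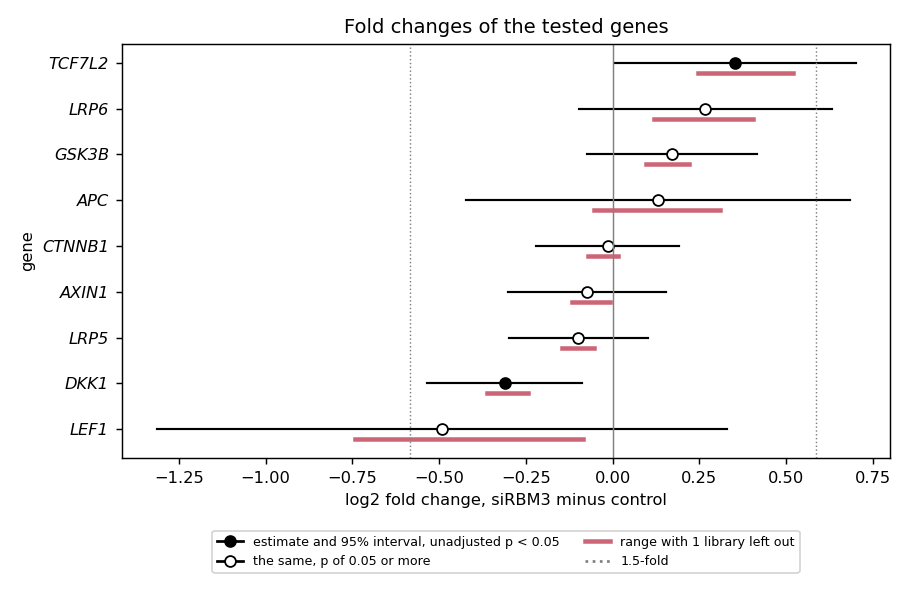
Log2 fold change of siRBM3 over control for the 9 tested genes with its 95% interval from edgeR (black), the range when 1 library was left out (red) and the 1.5-fold threshold (dotted). Of the intervals, those of TCF7L2 (0.01 to 0.70) and DKK1 (-0.54 to -0.09) did not include 0, and those of APC, LRP6, TCF7L2 and LEF1 crossed a 1.5-fold line.

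The members were then set among 110 other genes of the pathway, listed by role. Of the whole list of 120 genes, 79 were tested, and 48 were higher and 31 lower in siRBM3. The edgeR fit called none of them, beside 0.0% of the 15099 genes tested. At an unadjusted p under 0.05 there were 18 genes (22.8% of those tested, beside 13.1% of all genes), 12 higher and 6 lower, and 21 (26.6%) did not overlap between groups, beside 19.9%. The count of higher genes depended on single libraries, being 5 without control replicate 5, 6 without siRBM3 replicate 3, 7 without siRBM3 replicate 5 and 8 without siRBM3 replicate 4, and the count of lower genes was 2 without siRBM3 replicate 5. Over all genes, with the same libraries left out in the same order, 723, 672, 834 and 808 were higher, beside 990 in the main fit. Without siRBM3 replicate 5, 770 of all genes were lower, beside 993. BTRC was the one pathway gene with an FDR below 0.1, as in 0.55% of all genes. DESeq2 called 1 of 73 genes, BCL9, beside 1.27% of all genes. When no low-count filter was applied, BTRC (FDR 0.00343) and BCL9 (FDR 0.00277) both passed the edgeR threshold. That setting called 127 genes higher and 152 lower of 30090, where the main fit called 0. Many genes of the list were barely detected, since 43 of the 120 genes were under 1 CPM in every library and 7 had no count. DVL3 is among these 7, and whether its 0 reflects a difference in annotation between the counting and the symbols was not tested.

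**Figure D3:**
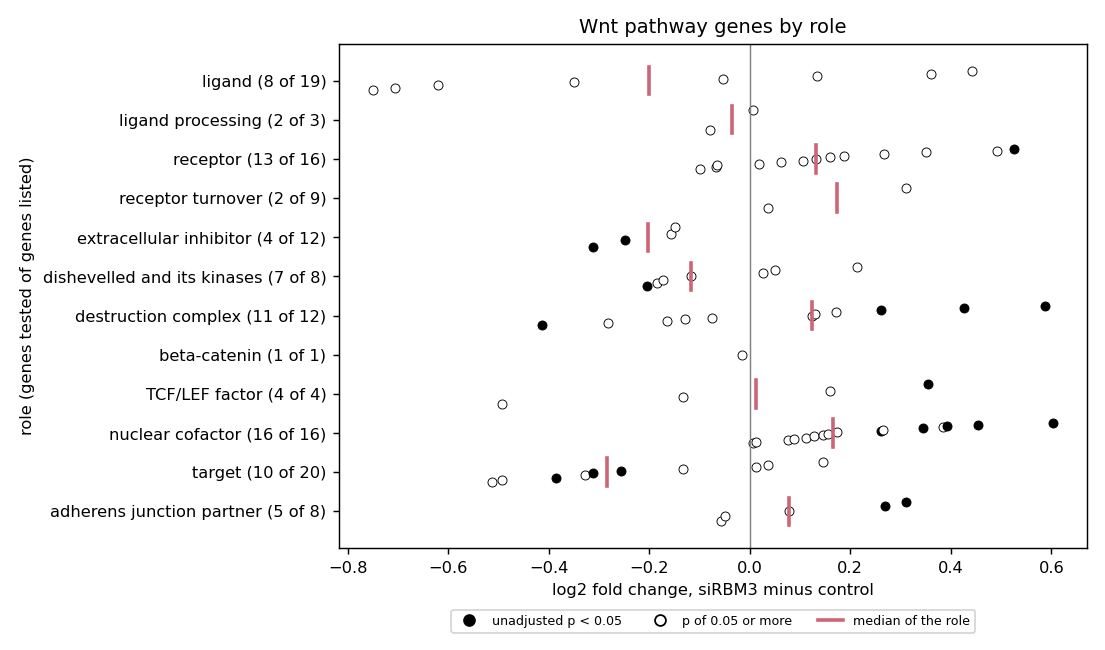
Log2 fold change of siRBM3 over control for each tested gene of the pathway list (points, filled at an unadjusted p under 0.05), grouped by role, with the median of each role (red). The 16 nuclear cofactors lay above 0 with a median of 0.16 (14 of 16 with scaling by library size only), and the 4 tested extracellular inhibitors lay below it with a median of -0.20 (2 of 4, with a median of -0.087, without control replicate 1).

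Around the destruction complex the paralogous adaptors that carry phosphorylated beta-catenin to the ubiquitin ligase had fold changes of opposite sign. BTRC was at 29.7, 25.9 and 28.1 CPM in control and at 42.2, 40.3 and 43.3 CPM in siRBM3, with a log2 fold change of 0.59 (SE 0.10, unadjusted p = 0.000447, FDR 0.0931). DESeq2 gave BTRC an adjusted p of 0.000608 at a log2 fold change of 0.58, just under the 1.5-fold limit. With 1 library left out its FDR ranged from 0.0628 to 0.357, and it was 0.184 with scaling by library size only. FBXW11 was at 83.7, 82.6 and 72.1 CPM in control and at 55.8, 67.0 and 56.3 CPM in siRBM3, with a log2 fold change of -0.41 (SE 0.11, FDR 0.202). Neither gene overlapped between groups. The same held for 4 of the 11 tested genes of this role in all, beside 19.9% of all genes. The log2 ratio of BTRC to FBXW11 CPM, a measure chosen after the values were seen and not tested, was -1.51 ± 0.16 in control and -0.51 ± 0.20 in siRBM3 (SD, n = 3). AMER1, which brings the complex to the membrane, was at 9.06, 9.14 and 9.68 CPM against 15.1, 9.68 and 12.5 CPM (log2 fold change 0.43, FDR 0.372). TNKS, the tankyrase that marks AXIN for degradation, was at 34.2, 37.7 and 39.7 CPM against 45.8, 44.05 and 43.7 CPM (log2 fold change 0.26, FDR 0.332). CSNK1A1, the priming kinase and the most abundant of this role per kb, had a log2 fold change of -0.16 (FDR 0.637). Of the 11 tested genes of the complex 6 were higher and 5 lower, and 5 were higher and 6 lower without control replicate 5 or siRBM3 replicate 3.

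All 16 tested nuclear cofactors were higher in siRBM3 (median log2 fold change 0.16), although 14 of 16 were higher when counts were scaled by library size only and 14 or 15 of 16 with any 1 library left out. Of all genes tested, 7325 were higher and 7774 lower. The role joins coactivators with corepressors such as TLE1, so its direction is not that of coactivators alone. The groups did not overlap for 5 of the 16, beside 19.9% of all genes. BCL9, which links beta-catenin to Pygopus, was at 29.6, 23.03 and 24.9 CPM in control and at 39.1, 38.9 and 40.0 CPM in siRBM3, with a log2 fold change of 0.60 (SE 0.12, FDR 0.121). It was the pathway gene that DESeq2 called, with an adjusted p of 0.00341. Its paralog BCL9L was at 335, 284 and 272 CPM against 378, 413 and 379 CPM (log2 fold change 0.39, FDR 0.197), and 37.5% of its exon bases overlap another gene. PYGO2, a Pygopus, was at 83.3, 52.1 and 62.4 CPM against 84.9, 94.4 and 91.6 CPM (log2 fold change 0.45, FDR 0.302). The acetyltransferase gene EP300 was at 159, 196 and 156 CPM against 251, 199 and 199 CPM (log2 fold change 0.34, FDR 0.325). In each of these genes every siRBM3 library was above every control library, though by little in PYGO2 and EP300. TLE5, a short member of the TLE family and the highest of the role per kb (90.7 CPM per kb), had a log2 fold change of 0.13 (FDR 0.618).

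**Figure D4:**
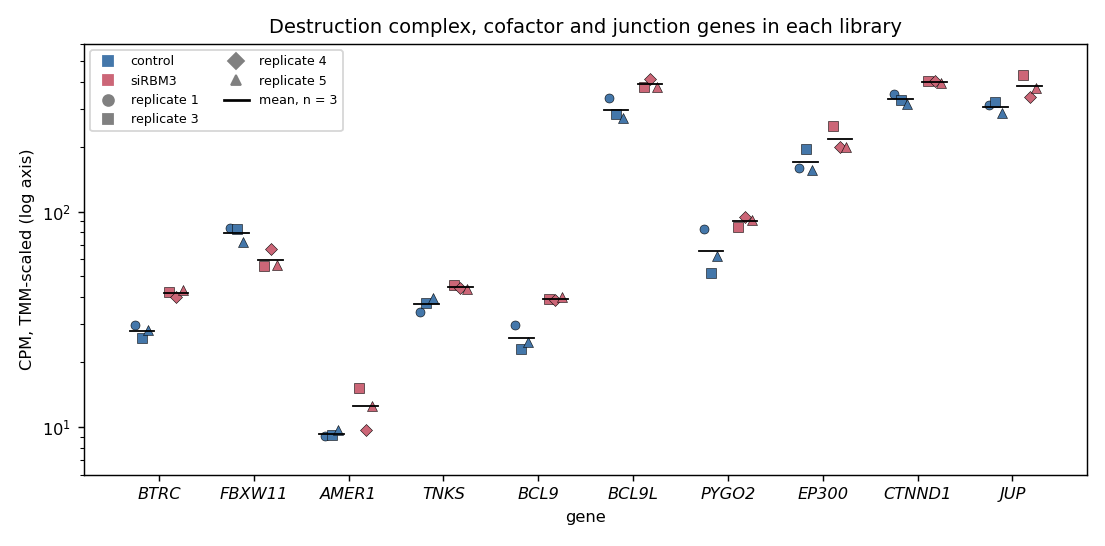
TMM-scaled CPM (log axis) of 10 genes of the destruction complex, the nuclear cofactors and the adherens junction in each library, with the line at the mean of 3. BTRC lay at 25.9 to 29.7 CPM in control and 40.3 to 43.3 CPM in siRBM3, and FBXW11 was the one gene of the 10 with siRBM3 below control.

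Upstream of the receptor, 8 of 19 Wnt ligands were tested and none reached an unadjusted p under 0.05. WNT5B, the highest of them per kb (4.54 CPM per kb), was at 25.3, 14.1 and 15.6 CPM against 19.2, 23.9 and 17.4 CPM, and WLS, which carries Wnt proteins to the surface, had a log2 fold change of 0.01 (FDR 0.981). Among the receptors 10 of 13 were higher, with a median log2 fold change of 0.13, and 8 of 13 without siRBM3 replicate 3, where the median was 0.02. FZD5 was the one receptor at an unadjusted p under 0.05, at 7.996, 6.01 and 5.84 CPM against 9.72, 8.61 and 10.2 CPM (log2 fold change 0.53, FDR 0.272). LGR4, the R-spondin receptor, had a log2 fold change of 0.31 (FDR 0.466), which was 0.17 without control replicate 5 and 0.51 without control replicate 1. The 4 tested extracellular inhibitors were lower in siRBM3, but 2 of 4 were higher without control replicate 1, where the median log2 fold change was -0.087 in place of -0.20. DKK3, a divergent relative of DKK1, was at 505, 521 and 526 CPM in control and at 460, 408 and 439 CPM in siRBM3 (log2 fold change -0.25, FDR 0.300). A share of 47.5% of the DKK3 exon length is shared with another gene. DVL1, a Dishevelled that relays the receptor signal, was at 106, 100.4 and 107 CPM against 87.5, 92.1 and 92.0 CPM (log2 fold change -0.20, FDR 0.356), and the kinase CSNK1E, the highest of that role per kb, had a log2 fold change of -0.18 (FDR 0.438).

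Downstream, 10 of the 20 listed target genes of beta-catenin were under 1 CPM in all libraries and were not tested. These were AXIN2, NKD1, NKD2, RNF43, LGR5, SP5, NOTUM, APCDD1, ASCL2 and MMP7, and APCDD1 and ASCL2 had no count. Some of them are negative feedback genes of the pathway, while DKK1, an inhibitor that is also a listed target, was tested. Of the 10 tested targets 7 were lower and 3 higher, with a median log2 fold change of -0.28. None passed the FDR threshold, nor did any of the 15099 genes tested by edgeR. The median was -0.14 without control replicate 1, and the split was 9 lower and 1 higher without control replicate 5 or with scaling by library size only. CCND1, the gene of cyclin D1, was at 641, 583 and 736 CPM in control and at 422, 532 and 545 CPM in siRBM3 (log2 fold change -0.39, SE 0.13, FDR 0.279). MYC was at 241, 199.99 and 200.08 CPM in control and at 172, 191 and 175 CPM in siRBM3 (log2 fold change -0.26, FDR 0.356). The groups did not overlap for either gene. The same held for 4 of the 10 tested targets in all, beside 19.9% of all genes. CCND1 and MYC also answer to many other pathways.

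**Figure D5:**
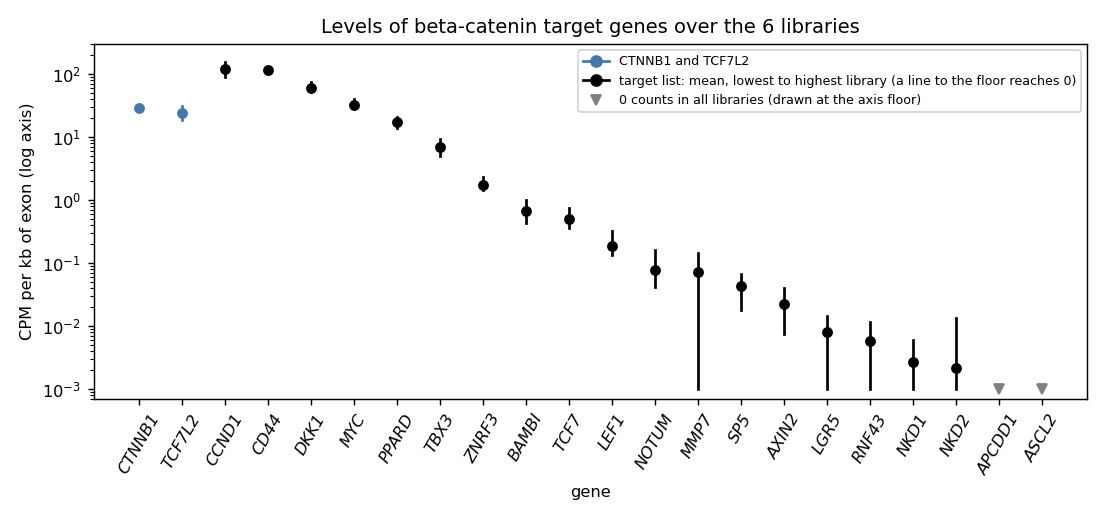
Mean level per kb of exon (log axis) of the 20 listed beta-catenin targets, with CTNNB1 and TCF7L2 for scale, and lines from the lowest to the highest of the 6 libraries. CCND1 was the highest target at 121 CPM per kb, AXIN2 lay at 0.0224 CPM per kb, and APCDD1 and ASCL2 had no count.

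At the adherens junction, where beta-catenin joins cadherins to the actin skeleton, CTNND1 (p120-catenin) was at 352, 331 and 316 CPM in control and at 404, 404 and 396 CPM in siRBM3 (log2 fold change 0.27, FDR 0.251). JUP, the beta-catenin relative plakoglobin, was at 313, 324 and 285 CPM against 431, 341 and 373 CPM (log2 fold change 0.31, FDR 0.297). The groups did not overlap for either gene. CTNNA1, which binds beta-catenin to actin and was the highest of this role per kb, had a log2 fold change of -0.05 (FDR 0.858). CDH1, the epithelial cadherin, was at 0.0404 to 0.724 CPM and was not tested, while the neural cadherin CDH2 was at 165 ± 4.602 CPM in control and 174 ± 14.2 CPM in siRBM3 (SD, n = 3).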

How the data were processed

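RNA from T24 cells was sequenced by the authors as stranded poly(A) libraries, 3 per group. Raw counts per Ensembl gene were deposited by the authors, made from reads aligned to hg19/GRCh37 with STAR (2.5.2a in the submitters' processing notes), with duplicates marked by Picard and genes counted by featureCounts. Not given in the sources used here are the annotation release, the strand setting and what was done with marked duplicates. Groups were taken from the sample labels, and all 6 columns were used. Of 63677 identifiers, 55665 were matched to a symbol and to GRCh37 coordinates through GENCODE v44lift37.

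Genes were kept by filterByExpr (minimum count 10, minimum total count 15), which left 15099. Counts were scaled by TMM and fitted with the robust quasi-likelihood test of edgeR 4.0.16 (older form, R 4.3.3) on all genes, with Benjamini-Hochberg adjustment over all of them (FDR). The alternatives were DESeq2 1.42.0, voom of limma 3.58.1, other scalings and filters, each library left out in turn and the replicate number as a block. With the block, only numbers 3 and 5, present in both groups, inform the fold change. A call needed an FDR below 0.01 and a change of 1.5-fold or more, the thresholds of the study. The scripts were tested on simulated data. No 2 libraries of a group were near identical (chi-square per degree of freedom 27.7 to 141).

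The 10 genes and the pathway list were chosen with earlier results of these data known. Named besides the 10 were RBM3, up to 4 genes per role with the smallest unadjusted p under 0.05, the gene of each role with the highest level per kb, and the 3 genes nearest in profile to CTNNB1 and to DKK1. The barely detected target genes, CDH1 and CDH2 were named after their values were seen.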

Additional observations from a re-analysis of the deposited data

How the results depend on the processing

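The edgeR fit called no gene in either direction, with 1983 genes at an unadjusted p under 0.05, 990 higher and 993 lower. The genes called were 84 higher and 76 lower with DESeq2, 127 and 152 without a filter on low counts, 145 and 191 with the replicate block, and 51 and 32 at an FDR below 0.1 with no fold limit. With 1 library left out they were 0 higher and 0 to 1 lower, the 1 being without control replicate 1. No member was called in any of these settings, and the members at an unadjusted p under 0.05 numbered 1 to 4, the 4 being with the replicate block. Pathway genes at an unadjusted p under 0.05 were 7 higher when scaled by library size only and 22 higher with the replicate block, and with 1 library left out they were 5 to 12 higher and 2 to 6 lower. Over all genes the counts at that p were 611 higher by library size only. They were 1714 higher and 2031 lower with the block, beside 990 and 993 in the main fit. With 1 library left out, 672 to 1141 of all genes were higher and 695 to 1325 lower. RBM3 passed the threshold at a log2 fold change of -2.14 with DESeq2, -2.13 without a filter and -2.57 with the replicate block.

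Of 38 named genes with a fit, 31 kept their direction in every setting. In the main fit the others lay near 0, apart from APC and WNT5B, both at 0.13, which varied with the library left out. CTNNB1 ranged from -0.071 to 0.015 with 1 library left out and was at 0.032 with the replicate block, APC ranged from -0.052 to 0.31, and WNT5B from -0.023 to 0.44. WLS was at -0.044 by library size only and ranged from -0.022 to 0.022. SEC16A was at -0.036 and CEP170B at -0.028 by library size only, MTX1 was at 0.027 with the replicate block, and with 1 library left out they ranged from -0.031 to 0.033, -0.039 to 0.053 and -0.077 to 0.012. The cause of these shifts was not tested.

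Only the numbers 3 and 5 occur in both groups, and the sources do not say that a number marks a shared culture. Deviations of the libraries correlated at 0.647 for number 3 and 0.0908 for number 5, which does not settle whether the numbers mark pairs. The main fit did not use the numbers, and the block was an alternative. Where the number was used as a block, control replicate 1 and siRBM3 replicate 4 each had a block of their own. The fold changes and FDRs of that fit thus rest on numbers 3 and 5 alone. With the replicate block DKK1 was at a log2 fold change of -0.39 with an FDR of 0.0411, still under the fold limit, while BTRC (0.66, FDR 0.00563), BCL9 (0.72, FDR 0.0039) and PYGO2 (0.63, FDR 0.00563) passed the threshold. LGR4 was at 0.55 (FDR 0.0154). Over all genes the fit with the block called 145 higher and 191 lower of the 15099 tested. Counts were lowest for AXIN2 and LEF1, with at most 6 and 50 per library.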
